A study of Mus musculus with 6 samples.

Results

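Histone genes were followed across 6 RNA-seq libraries of mouse splenic naive B cells, and none of them passed the test between TET2 knockout (KO) and wild type (WT). The genes were picked by symbol alone (prefixes Hist1h to Hist4h, H2af, H1f and H3f3, without the names of pseudogene form), which gave 87 of the 41053 gene names in the count table. Of these, 86 carry the names of histone genes. The other, H3f3aos, is a non-coding RNA gene antisense to H3f3a and was set apart after its annotation was seen. By prefix, 69 of the 86 are cluster genes, with 56 Hist1 genes on chromosome 13, 10 Hist2 genes on chromosome 3, 2 Hist3 genes on chromosome 11 and Hist4h4 on chromosome 6. The other 17 carry H2af, H1f or H3f3 names and are called replacement genes here. By the protein family of the name, 10 of the 86 are linker genes and 76 are core genes. In GENCODE vM21, 4 members that their symbols do not mark are annotated as pseudogenes (H3f3c, H2afy3, Hist1h2al and Hist1h2aj), and they were kept because the choice went by symbol.

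Of the libraries, 3 are labelled TET2 KO and 3 are labelled WT, numbered 2, 3 and 4 in each genotype, and all came from C57BL/6 mice without treatment. TET2 is an enzyme that oxidises 5-methylcytosine in DNA, and the comparison asks how RNA levels differ without it. The labels do not say which exons were deleted, whether the deletion was limited to some cells, how old or of which sex the mice were, or whether each library came from its own mouse. The spread that p-values measure is thus between libraries and may be technical. In bulk RNA, fewer cells of a kind and less RNA per cell cannot be told apart.

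Core histones (H2A, H2B, H3 and H4) form the octamer around which DNA is wrapped, and linker histone H1 binds where DNA enters and leaves it. The clustered, replication-dependent genes are transcribed mainly in S phase. Their mRNAs usually end just after a stem-loop that is bound by the protein SLBP, and they carry no poly(A) tail. Replacement genes are transcribed outside S phase as well, are polyadenylated and supply the variants that are put into chromatin without DNA replication. Naive B cells are resting cells, and an mRNA library kit such as the one used here selects polyadenylated RNA.

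The stem-loop is shown for 8 genes because it was found in most cluster genes and in few of all annotated transcripts. The histone 3′ stem-loop pattern was searched on the sense strand of GENCODE vM21 transcripts (GRCm38) and was found in 111 of 141767 transcripts, or 0.0783%. It was found in 46 of the 69 cluster genes and in 1 of the 17 replacement genes, H2afx. Capitals mark the 16 bases of stem, loop and stem, 5′ to 3′ in DNA letters, with 5 flanking bases on each side in lower case.
Hist1h1c, linker H1, chr13:23739512-23739527, plus strand: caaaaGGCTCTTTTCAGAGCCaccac
Hist1h1e, linker H1, chr13:23621782-23621797, minus strand: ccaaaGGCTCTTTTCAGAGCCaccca
Hist1h3a, core H3, chr13:23761890-23761905, minus strand: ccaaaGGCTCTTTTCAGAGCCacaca
Hist1h4c, core H4, chr13:23698089-23698104, minus strand: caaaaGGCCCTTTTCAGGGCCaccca
Hist1h4i, core H4, chr13:22040966-22040981, minus strand: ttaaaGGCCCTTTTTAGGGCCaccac
Hist4h4, core H4, chr6:136803998-136804013, minus strand: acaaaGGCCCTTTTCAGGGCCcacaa
Hist1h4b, core H4, chr13:23757366-23757381, plus strand: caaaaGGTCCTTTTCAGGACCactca
H2afx, variant H2A, chr9:44335240-44335255, plus strand: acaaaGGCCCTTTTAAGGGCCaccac
The stem differed by family. All 34 matched cluster genes for H1, H2A, H2B and H3 opened the stem with GGCTC, whereas 10 matched H4 genes opened it with GGCCC and the other 2, among them Hist1h4b, with GGTCC. H2afx, which encodes the H2A variant phosphorylated at DNA double-strand breaks, had the GGCCC form. In the other 23 cluster genes the letters were not in the annotated transcripts, many of which stop at the stop codon, so nothing follows about their RNA.

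Library totals ranged from 35101788 to 45401781 counts, and 3 counts in a library corresponded to 0.0679 to 0.0857 CPM (counts scaled to the library's total, with TMM normalization). Tet2 RNA was at 59.4, 64.8 and 50 CPM in KO and at 74.7, 83.3 and 56.8 CPM in WT libraries 2, 3 and 4 (log2 change −0.30, SE 0.14, adjusted p = 0.408, or −0.29 and 0.042 with a term for the libraries numbered 4). This does not check the genotype, because the counted exons may lie outside the deleted part. The Y-linked gene Kdm5d was at 23.3 to 34.9 CPM in KO and at 0 to 0.0571 CPM in WT libraries, and Xist was at 802 to 887 CPM in KO and at 1440 to 1540 CPM in WT libraries. Every KO library thus held both RNAs, so the comparison cannot be read as male KO against female WT. Sex composition and genotype therefore cannot be told apart. The summed B cell markers (10 of 11 found) were at 36300 to 42100 CPM in KO and at 32600 to 34700 CPM in WT libraries. Markers of T cells summed to 50.6 to 67.8 CPM in KO and 48.7 to 53.0 CPM in WT libraries (Cd3e at or below 0.0722 CPM in all 6), and those of NK cells, myeloid cells, dendritic cells, erythroid cells and megakaryocytes each summed to 36.6 CPM or less in every library, with Gp1bb at 0 in all. Most of the T cell sum was Lck, at 48.5 to 64.8 CPM in KO and 46.2 to 50.1 CPM in WT libraries. Germinal centre markers summed to 156 to 182 CPM in KO and 172 to 194 CPM in WT libraries, and plasma cell markers to 392 to 444 CPM in KO and 415 to 465 CPM in WT libraries. Most of the germinal centre sum was Bcl6, at 140 to 160 CPM in KO and 155 to 180 CPM in WT libraries. Of the 8 germinal centre markers 7 had a positive change, with a median log2 change of 0.27. Most of the plasma cell sum was Irf4, at 229 to 296 CPM in KO and 276 to 319 CPM in WT libraries. Xbp1 was at 118 to 127 CPM in KO and 108 to 150 CPM in WT libraries. Of the 5 tested plasma cell markers 1 had a positive change. This was Igj, at 32.9, 21.3 and 11.1 CPM in KO and 7.95, 13.3 and 4.91 CPM in WT libraries (log2 change 1.31, adjusted p = 0.325), with overlap. In each marker list 0 genes were called by edgeR, and 0 to 2 had an unadjusted p under 0.05. Over all genes these shares were 0.404% and 13.4%. The libraries numbered 4 stood apart in both genotypes. The heat shock list of 11 genes summed to 2460, 2520 and 3280 CPM in KO libraries 2, 3 and 4 and to 1910, 1950 and 3170 CPM in WT libraries 2, 3 and 4. In that list 0 genes were called by edgeR and 0 had an unadjusted p under 0.05, with Hsp90ab1, a cytosolic chaperone, at 1640, 1660 and 1940 CPM in KO and at 1140, 1170 and 1850 CPM in WT libraries (adjusted p = 0.455), and Hspa1a, an inducible chaperone, at 0.409, 0.819 and 4.22 CPM in KO and at 0.136, 0.0455 and 1.77 CPM in WT libraries (adjusted p = 0.665). The part of the B cell marker difference and of the heat shock genes in the histone values was not tested. With a term for the libraries numbered 4, these 2 genes were called higher in KO (Hsp90ab1 adjusted p = 0.0486, Hspa1a adjusted p = 0.038), beside 4.4% of all genes called in either direction. Calls that this term changed are given beside the values.

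Most of the histone fragments counted in these mRNA libraries came from replacement genes. The shares are of counted fragments and do not give the share of all histone RNA in the cells. Over all libraries, cluster genes took 7.9% of the 249434 counts on histone genes, and linker genes took 3.59%. The replacement sum was 907 ± 60.7 CPM in KO and 946 ± 33.6 CPM in WT libraries, against a cluster sum of 75.2 ± 11.9 CPM in KO and 85.1 ± 13.8 CPM in WT libraries (SD, n = 3 each). A mean of at least 1 CPM was reached by 10 of 69 cluster genes and by 8 of 17 replacement genes. H3f3b and H2afy together held 85.2% of the replacement counts. Hist1h1c, Hist2h2be, Hist3h2a, Hist1h2bc and Hist1h4i held 76.7% of the cluster counts, with Hist1h1c alone at 39.3%.

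In CPM per kb of exon (RPKM), the order began with 3 replacement genes. H3f3b stood first at 176 RPKM (155 to 195 over the libraries), followed by H2afy at 38.9 RPKM (36.8 to 40.6) and H2afv at 25.9 RPKM (22.8 to 27.6), and the ranges of these 3 did not overlap. Hist1h1c (20.2 RPKM, 12.3 to 25.9), H2afx (20.2 RPKM, 18 to 22.5) and H2afj (18.2 RPKM, 13.6 to 20.3) came next, with ranges that overlap each other, and that of Hist1h1c reaches into that of H2afv. H3f3a (6.57 RPKM, 5.71 to 7.57), Hist1h2bc (6.26 RPKM, 3.35 to 10.6), Hist3h2ba (5.67 RPKM, 4.07 to 7.12), Hist2h2be (5.40 RPKM, 4.8 to 6.39), Hist1h4i (5.0 RPKM, 2.94 to 6.64) and H2afz (4.83 RPKM, 4.03 to 5.89) could not be ordered beyond their spread. In H3f3a 27.1% and in H2afz 35.4% of the 50-base windows also occur in another gene's transcripts, and fragments from such windows may go uncounted.

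**Figure D1:**
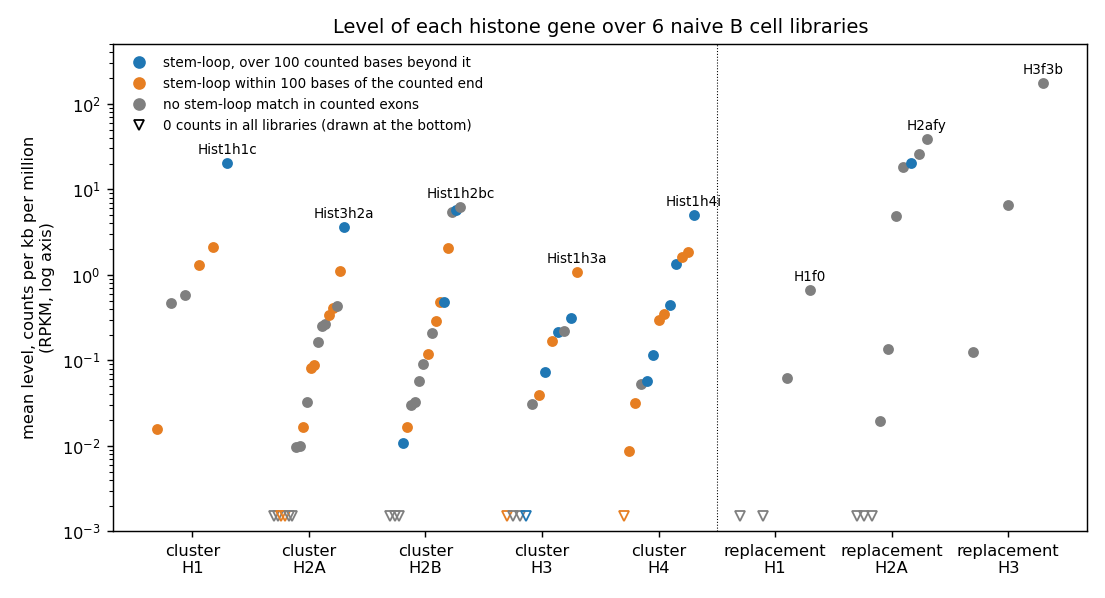
Mean level of each histone gene, without H3f3aos, over the 6 libraries in RPKM on a log axis, by class and family (1 point a gene), with triangles at the bottom for the 19 genes without a count. H3f3b stands highest at 176 RPKM, and among cluster genes Hist1h1c stands highest at 20.2 RPKM. Colours give the place of the stem-loop in the counted exons, matched by gene name.

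Low counts kept most histone genes out of the test. No count at all was found for 19 of the 86 genes, namely H2afb1, H2afb2, H2afb3, H1foo, H1fnt, Hist1h2ba, Hist1h2ah, Hist1h2al, Hist1h2ao, Hist1h2ap, Hist1h2bq, Hist1h2br, Hist1h3b, Hist1h3g, Hist1h4m, Hist2h2aa1, Hist2h2aa2, Hist2h3b and Hist2h3c1. H1foo encodes the oocyte linker histone and H1fnt a testis linker histone. A further 39 genes had between 1 and 55 counts over the 6 libraries, with a median of 12 and the highest value for Hist1h2bj. The remaining 28 were tested, which is 19 of 69 cluster and 9 of 17 replacement genes, or 6 of 10 linker and 22 of 76 core genes. Sequence shared with other genes was most frequent where counts were lowest. A median of 88.7% of 50-base windows was shared with another gene's transcripts in the genes without counts, 59.4% in those below the filter and 12.6% in those tested. The whole exon sequence of Hist2h2aa1, Hist2h2aa2, Hist2h3c1 and Hist2h3b also lies within overlapping Gm genes, and such reads were not assigned by the counting. A count of 0 for these genes is therefore uncertain and does not show that they were silent.

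No histone gene was called in KO against WT. The edgeR quasi-likelihood test called 0 of 28 histone genes at an adjusted p under 0.05, where the background over all 13604 genes was 0.404%. DESeq2 (background 2.57%) and limma-voom (background 0.353%) also called 0. At an unadjusted p under 0.05 there were 3 of 28 histone genes, or 10.7%, beside 13.4% of all genes. In 7 of 28 histone genes (25%) all KO libraries lay above all WT libraries, beside 10.2% of all genes, and in 0 of 28 they all lay below, beside 8.28% of all genes. These 7 were Hist1h1a, Hist1h1d, Hist1h1e, Hist1h3a, Hist1h4c, H2afv and H2afy. Of the fitted log2 changes 14 were positive and 14 negative, with a median of 0.03, and the median of all genes was −0.01.

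**Figure D2:**
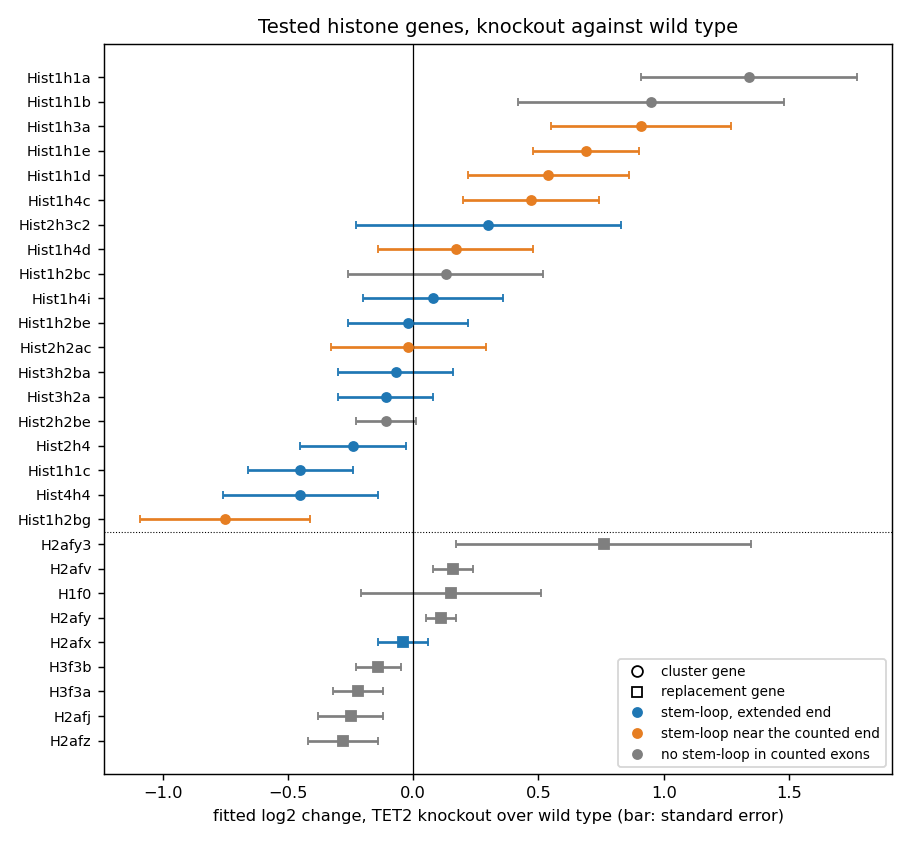
Fitted log2 change of the 28 tested histone genes in KO over WT, with bars for the standard error, cluster genes as circles and replacement genes as squares. Hist1h1a has the largest positive value (1.34) and Hist1h2bg the largest negative value (−0.75), and no gene passed the test.

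Among the replacement genes for H3, H3f3b and H3f3a encode the same H3 variant, which is deposited outside replication. H3f3b (chr11:116021912-116027962) was at 461, 474 and 561 CPM in KO libraries 2, 3 and 4, against 530, 581 and 541 CPM in WT libraries 2, 3 and 4 (log2 change −0.14, SE 0.09, adjusted p = 0.529). H3f3a was at 20.4, 20.0 and 23.5 CPM in KO, against 22.7, 26.5 and 25 CPM in WT libraries (log2 change −0.22, SE 0.10, adjusted p = 0.407). For both genes KO libraries 2 and 3 lay below all WT libraries, and KO library 4 reached into the WT range. In H3f3a, 798 exon bases overlap antisense genes, and the counting used no strand. The antisense H3f3aos was at 3.02, 3.08 and 1.79 CPM in KO and at 2.99, 2.77 and 1.91 CPM in WT libraries, low in library 4 of both genotypes. H3f3c had 12 counts in all (0.0324 ± 0.0157 CPM in KO and 0.0703 ± 0.0638 CPM in WT libraries) and was not tested.

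Among the H2A variants, H2afy encodes macroH2A1, a variant with a large extra domain. H2afy (chr13:56073619-56136361) was at 277, 276 and 271 CPM in KO, against 251, 252 and 261 CPM in WT libraries (log2 change 0.11, SE 0.06, adjusted p = 0.486). The groups were separate by a small margin. H2afv and H2afz encode the H2A.Z proteins found around active promoters. H2afv was at 45.1, 44.1 and 44.3 CPM in KO, against 37.2, 40.0 and 42.7 CPM in WT libraries (log2 change 0.16, SE 0.08, adjusted p = 0.438). H2afz, named here after its values were seen, was at 7.40, 7.15 and 8.69 CPM in KO, against 9.26, 10.5 and 8.51 CPM in WT libraries (log2 change −0.28, SE 0.14, adjusted p = 0.418). H2afv was thus higher in every KO library, whereas H2afz was lower in KO libraries 2 and 3 and overlapped in library 4. H2afj, another H2A variant gene, was at 29.4, 24.8 and 36.9 CPM in KO, against 34.6, 36.9 and 37.2 CPM in WT libraries (log2 change −0.25, SE 0.13, adjusted p = 0.447). H2afx, also named after its values were seen, was at 24.9 to 30.2 CPM in KO and at 26.4 to 31.2 CPM in WT libraries.

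The replacement linker genes were low. H1f0, the linker histone of differentiated cells, was at 1.66, 2.34 and 0.859 CPM in KO and at 1.81, 1.55 and 0.999 CPM in WT libraries (log2 change 0.15, SE 0.36, adjusted p = 0.889). Its lowest value in each genotype was that of library 4. H1fx, a further H1 gene, had 19 counts in all, and H1foo had 0.

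Cluster linker genes split between Hist1h1c and the others. Hist1h1c (chr13:23738808-23740367), which held 86.4% of all linker counts, was at 19.3, 24.8 and 35.7 CPM in KO, against 39.3, 29.6 and 40.4 CPM in WT libraries (log2 change −0.45, SE 0.21, adjusted p = 0.392). KO libraries 2 and 3 lay below all WT libraries, and KO library 4 lay within them. Hist1h1e (chr13:23621755-23622502) was at 2.02, 2.0 and 1.79 CPM in KO, against 0.997, 1.27 and 1.34 CPM in WT libraries (log2 change 0.69, SE 0.21, adjusted p = 0.236). Hist1h1a was at 0.363, 0.554 and 0.379 CPM in KO, against 0.159, 0.250 and 0.0857 CPM in WT libraries (log2 change 1.34, SE 0.43, adjusted p = 0.254), on 75 counts in all. Both were higher in every KO library, as was Hist1h1d, at 0.886, 1.69 and 0.834 CPM in KO, against 0.793, 0.773 and 0.771 CPM in WT libraries (log2 change 0.54, SE 0.32, adjusted p = 0.490). The Hist1h1d change was 0.14 without KO library 3. Its counts were 39, 70 and 33 in KO and 35, 34 and 27 in WT libraries 2, 3 and 4. In CPM, KO library 4 lay above WT library 2 only by a small margin. Hist1h1b was at 0.409, 0.963 and 0.329 CPM in KO and at 0.136, 0.432 and 0.314 CPM in WT libraries (log2 change 0.95, SE 0.53, adjusted p = 0.470), with overlap. Each of these genes encodes a different H1 subtype.

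Without Hist1h1c, the 5 remaining cluster linker genes summed to 3.68, 5.22 and 3.34 CPM in KO, against 2.13, 2.73 and 2.51 CPM in WT libraries. They held 511 counts in KO and 302 counts in WT libraries, a CPM ratio of 1.66, and the groups stayed separate with RLE size factors (ratio 1.65) and with library totals (ratio 1.61). This sum was formed after the values were seen and carries no test. For all 10 linker genes the median fitted log2 change of the 6 tested was 0.62, with 5 positive (0.24 without KO library 3), while the log2 difference of the sum was −0.34 (32.3 ± 7.63 CPM in KO and 40.4 ± 5.65 CPM in WT libraries, SD, n = 3 each). The sign of the sum was that of Hist1h1c, and without it the difference was 0.48. That sum was 5.38, 7.66 and 4.22 CPM in KO and 4.08, 4.34 and 3.6 CPM in WT libraries, with overlap. For the 22 tested core genes the median was −0.03, with 9 positive, and the sum of all 76 core genes was 950 ± 64.6 CPM in KO and 990 ± 34.9 CPM in WT libraries (log2 difference −0.06).

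Core cluster genes showed no common direction. Among H2B genes, which supply a core subunit of the octamer, Hist2h2be was at 13.7, 14.6 and 12.6 CPM in KO and at 14.1, 13.2 and 16.7 CPM in WT libraries (log2 change −0.11, SE 0.12, adjusted p = 0.727). Hist1h2bc was at 3.84, 5.25 and 5.31 CPM in KO and at 2.47, 2.96 and 7.82 CPM in WT libraries (log2 change 0.13, SE 0.39, adjusted p = 0.912). WT library 4 held its highest value, and the other WT libraries lay below all KO libraries. Hist1h2bg was at 0.50, 0.578 and 1.14 CPM in KO, against 1.45, 1.18 and 1.06 CPM in WT libraries (log2 change −0.75, SE 0.34, adjusted p = 0.379), and KO library 4 reached into the WT range. Hist3h2ba was at 2.50 to 4.37 CPM in KO and at 3.10 to 4.23 CPM in WT libraries, highest in library 4 of both.

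The H2A cluster genes were led by Hist3h2a, at 6.65, 6.6 and 8.90 CPM in KO and at 6.84, 7.12 and 10 CPM in WT libraries (log2 change −0.11, SE 0.19, adjusted p = 0.831). It shares 708 exon bases with Trim17 on the same strand. Hist2h2ac was at 0.50 to 0.632 CPM in KO and at 0.400 to 0.728 CPM in WT libraries, and Hist1h2ae, with 46 counts, was not tested. Among H3 genes, Hist1h3a (chr13:23761853-23762386) was at 0.704, 0.626 and 0.910 CPM in KO, against 0.226, 0.432 and 0.542 CPM in WT libraries (log2 change 0.91, SE 0.36, adjusted p = 0.326), higher in every KO library on 141 counts in all. Hist2h3c2 was at 0.136 to 0.457 CPM in KO and at 0.204 to 0.457 CPM in WT libraries, and Hist1h3e, with 44 counts, was not tested.

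Of the genes for the core histone H4, Hist1h4i was at 3.32, 3.39 and 4.47 CPM in KO and at 3.65, 2.14 and 4.83 CPM in WT libraries (log2 change 0.08, SE 0.28, adjusted p = 0.925). Hist2h4 was at 1.62 to 2.38 CPM in KO and at 2.13 to 2.71 CPM in WT libraries (log2 change −0.24, SE 0.21, adjusted p = 0.648). Hist4h4 was at 0.931, 0.843 and 1.49 CPM in KO and at 1.49, 1.07 and 1.91 CPM in WT libraries (log2 change −0.45, SE 0.31, adjusted p = 0.551), highest in library 4 of both genotypes. Hist1h4c, named after its values were seen, was at 0.863, 0.867 and 0.834 CPM in KO, against 0.498, 0.568 and 0.799 CPM in WT libraries, so that the groups met closely in library 4.

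**Figure D3:**
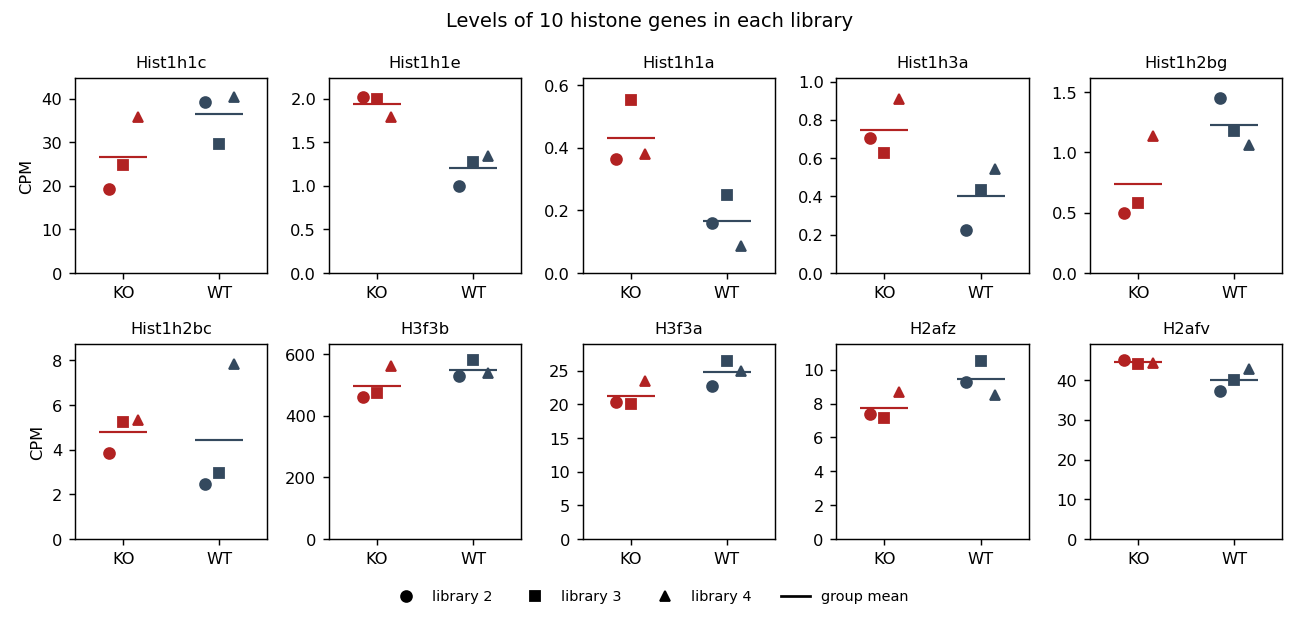
CPM of 10 histone genes in each library, KO left of WT, with marker shapes for the library number and a line at the group mean. KO libraries 2 and 3 hold the lowest Hist1h1c values (19.3 and 24.8 CPM), while Hist1h1e is higher in every KO library (1.79 to 2.02 CPM) than in any WT library (0.997 to 1.34 CPM).

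In the main fit the medians of cluster and replacement genes differed little. The median fitted log2 change was 0.08 over the 19 tested cluster genes, with 10 positive, and −0.04 over the 9 tested replacement genes, with 4 positive. Among these 4 is H2afy3, which is annotated as a pseudogene (log2 change 0.76, SE 0.59, adjusted p = 0.606, on 65 counts in all). The log2 difference of the sums was −0.18 for cluster and −0.06 for replacement genes, so median and sum differ in sign for the cluster genes. The signs of the medians depended on the filter and on single libraries. At a minimum of 1 CPM in 3 libraries they were −0.11 for cluster and −0.09 for replacement genes. Without KO library 4 they were −0.06 for cluster and −0.11 for replacement genes. Without WT library 3 they were 0.06 for cluster and 0.03 for replacement genes. They lay further apart without WT library 4, at 0.37 for cluster and −0.06 for replacement genes. With the libraries numbered 2 and 3 alone they were 0.06 for cluster and −0.13 for replacement genes. Without Hist1h1c the other 68 cluster genes summed to 44.2, 50.1 and 51.5 CPM in KO and to 42.9, 43.5 and 59.8 CPM in WT libraries, a log2 difference of 0.01.

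Several calls depended on the libraries numbered 4. With the 4 libraries numbered 2 and 3 alone, 8 of 28 histone genes were called, beside a background of 24% of all genes, with 13.6% called higher and 10.4% called lower in KO. H2afv (log2 change 0.21, adjusted p = 0.0385), Hist1h1e (0.82, adjusted p = 0.0240) and Hist1h2bc (0.74, adjusted p = 0.0133) were higher in KO. H2afj (−0.39, adjusted p = 0.00424), H2afz (−0.44, adjusted p = 0.0202), H3f3a (−0.28, adjusted p = 0.0317), H3f3b (−0.25, adjusted p = 0.0125) and Hist1h2bg (−1.29, adjusted p = 0.00675) were lower in KO. With all libraries and a term for those numbered 4 the test called 0 histone genes (background 4.4%), with the smallest adjusted p at 0.0755 for Hist1h1e.

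Cluster genes differed in how far their counted exons run past the stem-loop. In 14 of them the counted exons went on for more than 100 bases beyond it, for example 840 bases in Hist1h1c, 330 in Hist1h4i and 2445 in Hist4h4. In 27 they ended within 100 bases of it, for example 27 bases in Hist1h1e and 37 in Hist1h3a. In 28 no stem-loop match listed under the same gene name lay inside them. Hist2h2aa1 and Hist2h2aa2, both without a count, are among these. The match listed for each lies near the counted end of the other, so by position both would be near-end genes. The genes with extended ends held 65.5% of the cluster counts and had a median level of 0.381 RPKM (highest 20.2). Of their 12910 counts, Hist1h1c alone held 7739. Those whose counted exons end near the loop held 9.19% and had a median of 0.167 RPKM (highest 2.1). These classes follow the counted exons and not the ends of the RNAs. In the tested near-end genes, the matched GENCODE vM21 transcripts run past the loop by 4884 bases (Hist1h1d), 1153 (Hist1h1e), 770 (Hist1h4d) and 454 (Hist1h4c). The other values are 155 (Hist1h2bg), 57 (Hist2h2ac) and 37 (Hist1h3a). The median shared 50-base windows were 30.2% in the extended and 49.7% in the near-end class, and the part of shared sequence in the difference in level was not tested.

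The genes whose counted exons end near the stem-loop were summed as well, which does not sort the mRNAs by their own ends. Their sum was 7.56, 8.26 and 8.34 CPM in KO, against 5.98, 6.75 and 6.94 CPM in WT libraries, a ratio of 1.23 with no overlap (1.22 with RLE size factors and 1.19 with library totals, also without overlap). In this class the 3 linker genes summed to 2.91, 3.71 and 2.63 CPM in KO, against 1.83, 2.05 and 2.11 CPM in WT libraries, and the 24 core genes to 4.65, 4.55 and 5.71 CPM in KO and to 4.14, 4.71 and 4.83 CPM in WT libraries, with overlap. Of its 7 tested genes 5 had positive changes (median log2 change 0.47). The extended genes summed to 36.8, 44.4 and 59.5 CPM in KO and to 58.7, 48.6 and 67.5 CPM in WT libraries, with overlap. Of this sum, Hist1h1c alone gave 19.3, 24.8 and 35.7 CPM in KO and 39.3, 29.6 and 40.4 CPM in WT libraries. The sum without Hist1h1c was not computed. Positive changes were seen in 2 of the 8 tested extended genes (median log2 change −0.09). The classes were not compared by a test.

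Other RNAs moved beside these sums. A list of 146 genes for RNAs without a poly(A) tail summed to 83.6, 83.5 and 102 CPM in KO, against 122, 120 and 109 CPM in WT libraries. Of its 51 tested genes 0 were called by edgeR, 11 had an unadjusted p under 0.05, and 7 had a positive change. Over all genes 0.404% were called and 13.4% had an unadjusted p under 0.05. The share of positive changes over all genes was not computed, and their median log2 change was −0.01. With a term for the libraries numbered 4, 3 were called lower in KO, namely Rmrp (adjusted p = 0.035), Rn7sk (0.0393) and Rpph1 (0.0438). That term called 4.4% of all genes in either direction. Rmrp, the RNA of RNase MRP, was at 0.662 ± 0.117 CPM in KO and 1.56 ± 0.483 CPM in WT libraries (SD, n = 3 each, log2 change −1.22, adjusted p = 0.159), and Rpph1, the RNA of RNase P, at 1.06 ± 0.149 CPM in KO and 2.15 ± 0.587 CPM in WT libraries (SD, n = 3 each, log2 change −1.01, adjusted p = 0.176). A replication list of 30 genes, all tested, summed to 995, 959 and 961 CPM in KO and to 921, 894 and 948 CPM in WT libraries, and with library totals these groups overlapped. In it 0 were called by edgeR, 10 had an unadjusted p under 0.05, and 23 had a positive change with a median of 0.17. With a term for the libraries numbered 4 (background 4.4% in either direction), 4 were called higher in KO and 1 lower. The higher ones were Mcm3 (adjusted p = 0.0257), Top2a (0.0275), Mcm6 (0.0353) and Mki67 (0.045), and the lower one was Tk1 (0.000277). Tk1, thymidine kinase, was at 22.5 ± 3.85 CPM in KO and 40.1 ± 7.80 CPM in WT libraries (SD, n = 3 each, log2 change −0.83, adjusted p = 0.105). Mcm6, a subunit of the replicative helicase, was at 85.1 ± 4.8 CPM in KO and 70.4 ± 2.15 CPM in WT libraries (SD, n = 3 each, log2 change 0.27, adjusted p = 0.186). The part of RNA without poly(A) tails and of replicating cells in the histone values was not tested.

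**Figure D4:**
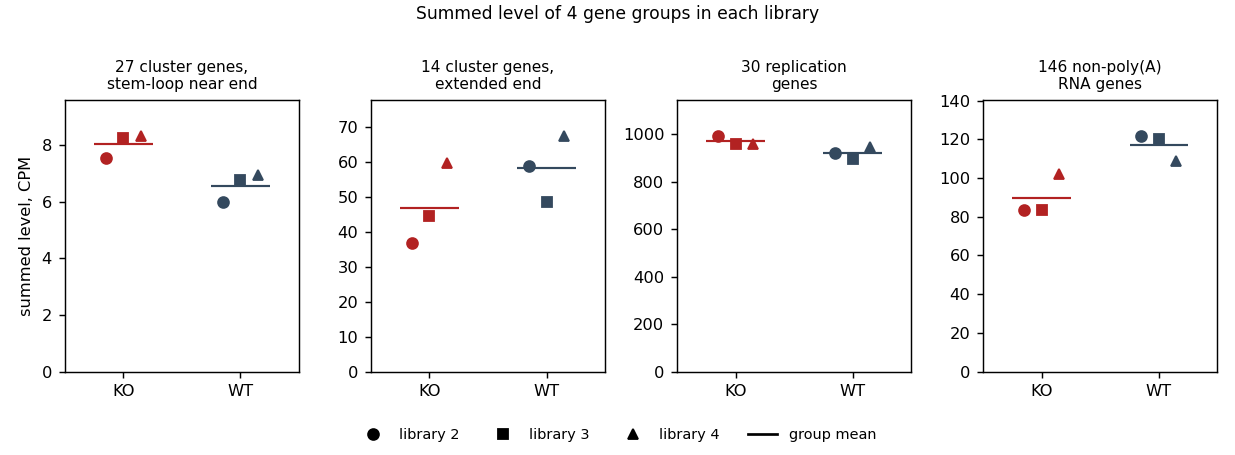
Summed CPM in each library, KO left of WT, with a line at the group mean. Cluster genes are shown by whether their counted exons end near the stem-loop or extend beyond it. The other panels show the replication list and RNAs without a poly(A) tail. The near-end genes lie at 7.56 to 8.34 CPM in KO and at 5.98 to 6.94 CPM in WT libraries, and the RNAs without a poly(A) tail lie at 83.5 to 102 CPM in KO and at 109 to 122 CPM in WT libraries.

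The genes that make and handle histones were read from lists. Of 18 genes for 3′ processing of histone mRNA, 0 were called by edgeR, 1 had an unadjusted p under 0.05 and 11 had a positive change (median 0.06). The list summed to 1590, 1560 and 1570 CPM in KO, against 1480, 1490 and 1550 CPM in WT libraries. This sum was formed with TMM only, so whether the groups stay separate with library totals was not tested. Snrpb, a protein of the Sm ring, was at 189 ± 7.21 CPM in KO and 163 ± 18.4 CPM in WT libraries (SD, n = 3 each, log2 change 0.21, adjusted p = 0.349), and Lsm10, a ring protein of the U7 particle that cuts histone pre-mRNA, at 16.8 ± 0.394 CPM in KO and 14.1 ± 2.45 CPM in WT libraries (SD, n = 3 each, log2 change 0.25, adjusted p = 0.433). Of 25 histone chaperone and exchange genes, 0 were called by edgeR, 3 had an unadjusted p under 0.05 and 17 had a positive change (median 0.09). Beside both lists, 0.404% of all genes were called and 13.4% had an unadjusted p under 0.05. Asf1b, a chaperone of newly made H3 and H4, was at 11.3, 10.3 and 8.82 CPM in KO, against 6.91, 7.03 and 7.99 CPM in WT libraries (log2 change 0.47, SE 0.14, adjusted p = 0.219). Ssrp1, a subunit of the FACT complex, was at 327 ± 26.3 CPM in KO and 275 ± 6.44 CPM in WT libraries (SD, n = 3 each, log2 change 0.25, SE 0.08, adjusted p = 0.246). With a term for the libraries numbered 4, Ssrp1 (adjusted p = 0.0427) and Npm1, which encodes the chaperone nucleophosmin (adjusted p = 0.0315), were called higher in KO. The background with that term was 4.4% in either direction.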

How the data were processed

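Per the labels, RNA was purified by Trizol and RNeasy columns before stranded mRNA library preparation. The deposited values are raw counts of fragments per gene name over exons of GENCODE vM3, made with featureCounts 1.5.1 without strand, multi-mapping or overlap options, per the file headers. Reads were aligned with STAR 2.3.0e to GRCm38.p3, per the submitters' processing notes. Exon lengths were taken as deposited by the authors and used for RPKM. A further 6 count columns match no sample and were not used.

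Of 41053 names, 23019 had a count and 13604 passed filterByExpr (minimum count 10). KO was compared with WT by edgeR 4.0.16 (R 4.3.3; TMM, robust quasi-likelihood F test, no covariate) with Benjamini-Hochberg adjustment over all tested genes and a threshold of 0.05. The common biological coefficient of variation was 12.4%. The test was checked on simulated counts, with this variation in every gene and no difference of the libraries numbered 4. That check does not cover such a difference. limma 3.58.1 (voom) and DESeq2 1.42.0 were alternatives, with other scalings and filters, a replicate block, a term for the libraries numbered 4, and single libraries left out. A fold change comes from the fit, sums are of CPM per library, and floors cover counting error only. For a single gene, 3 libraries against 3 allow an exact permutation p of 0.1 at the smallest, so none is given.

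The histone members and all gene lists were chosen with earlier results of these data known. Values were given for Tet2, for the 3 genes with the highest mean CPM in each histone class, for the 6 with the smallest p, for the 3 with the largest change in each direction, and for up to 2 genes of each list by p. Other named genes were picked with their values in view. Stem-loops were read from GENCODE vM21 transcripts on GRCm38, and for 84 of 87 names RefSeq symbols were matched. Members that share exon bases with another gene number 13 of 86, with 10 on the opposite strand, and their counts are uncertain.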

Additional observations from a re-analysis of the deposited data

How the results depend on the processing

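Of the values that answer a comparison, 127 under the alternatives stayed within the set range of the reported ones and 23 did not; the cause was not tested. The 55 genes called by edgeR became 262 with no filter on low counts, 349 with DESeq2, 599 with a term for the libraries numbered 4 and 3307 with the libraries numbered 2 and 3 alone. They ranged from 17 (without KO library 2) to 900 (without WT library 4), with 26 without KO library 3, 146 without KO library 4, 22 without WT library 2 and 21 without WT library 3. The count of histone genes called, 0, became 8 with the libraries numbered 2 and 3 alone, and ranged from 0 to 1 with single libraries left out. The gene was Hist1h2bc, without WT library 4 (log2 change 0.82, adjusted p = 0.0498). The median of the cluster genes ranged from −0.06 to 0.37 with single libraries left out (highest without WT library 4) and was −0.11 with a minimum of 1 CPM in 3 libraries, that of the replacement genes was −0.13 with the libraries numbered 2 and 3 alone, and that of the core genes ranged from −0.15 (without WT library 2) to 0.07 (without WT library 4) and was −0.11 with the same minimum. The median of the linker genes was 0.14 with that minimum and ranged from 0.24 (without KO library 3) to 0.73. The summed differences became 0.05 for replacement and 0.03 for core genes in the pair numbered 4 alone. For linker genes it became 0.48 without Hist1h1c, an alternative chosen after seeing the data. Among named genes, 302 values kept their direction and their side of the threshold, 8 passed it under an alternative, and 13 changed sign, with 0 of these called. The log2 change of Hist2h2be became 0.05 with the libraries numbered 2 and 3 alone and that of Hist2h2ac 0.00 with limma-voom. With single libraries left out it ranged from −0.27 to 0.08 for Hist3h2a, −0.21 to 0.18 for Hist2h2ac, −0.16 to 0.82 for Hist1h2bc, −0.30 to 0.10 for Hist3h2ba, −0.19 to 0.37 for Hist1h4i and −0.21 to 0.45 for H1f0.

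Libraries with the same number shared no stated origin. Their deviations from the group means correlated at 0.075 (libraries 2), 0.278 (libraries 3) and 0.448 (libraries 4), and KO library 2 correlated best with WT library 3 (0.300), so the numbers were not taken to pair the samples. With a replicate block 85 genes and 0 histone genes were called.

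The filter on low counts left 58 histone genes untested, and the part of depth and of shared sequence in their low counts was not tested. At 3 counts or fewer in a library no level could be told from 0.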

Other observations

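In the libraries numbered 4, 11 of the 28 tested histone genes were above and 4 were below the mean of libraries 2 and 3 in both genotypes. The shares over all genes were not computed, so these counts do not set histone genes apart. In KO libraries Hist1h1c was higher in library 4 by 0.69 on the log2 scale and in WT libraries by 0.24. Hist4h4 was higher by 0.52 in KO and 0.45 in WT libraries, Hist3h2a by 0.40 in KO and 0.49 in WT libraries, and Hist3h2ba by 0.53 in KO and 0.34 in WT libraries. H1f0 had log2 differences of −0.86 in KO and −0.54 in WT libraries. These differences were not tested.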
